A study of Mus musculus with 24 samples.

Results

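Endothelial cells line every blood vessel, and 9 genes that mark them were followed through the brain of mice with and without Cdr1as: Kdr, Flt1, Tek, Tie1, Cldn5, Cdh5, Pecam1, Clec14a and Ly6c1. They were chosen by name as genes of brain endothelium, with earlier results of these data known. They make up 9 of the 37621 features counted in each library. All 9 were matched by symbol, and all 9 passed the filter on low counts in the comparison over all libraries. Poly(A)-selected RNA was sequenced from dissected cerebellum, cortex, hippocampus and olfactory bulb of C57BL/6 mice. In each region 3 libraries carried the genotype Cdr1as knockout and 3 were wild type, which gives 8 groups and 24 libraries. No treatment, age, sex or design of the knockout allele is given in the sources used here. Cdr1as is a circular RNA of neurons with many binding sites for the microRNA miR-7. Circular RNA lacks a poly(A) tail, and poly(A)-selected libraries do not measure it.

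In the brain, endothelial cells form the blood-brain barrier. Tight junctions seal the space between neighbouring cells, and few substances cross without a transporter. Vascular endothelial growth factor (VEGF) acts on the receptor tyrosine kinases encoded by Kdr (VEGFR2, the main signalling receptor) and Flt1 (VEGFR1, which binds VEGF tightly and also exists as a soluble decoy). Angiopoietins act on Tek (Tie2), which pairs with the related receptor Tie1. Cldn5 encodes claudin-5, the main tight junction protein of brain vessels. Cdh5 encodes VE-cadherin of the adherens junction, and Pecam1 an adhesion molecule at cell contacts. Clec14a is a group XIV C-type lectin of endothelial cells, and Ly6c1 is a surface protein of the Ly6 family that is abundant on brain capillaries. In bulk tissue, fewer endothelial cells and less RNA per endothelial cell cannot be told apart.

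Because Cdr1as binds miR-7, the 2 mature forms of that microRNA are shown with the seed, bases 2 to 8, in capitals (RefSeq).
miR-7a-5p: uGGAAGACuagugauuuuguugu
miR-7b-5p: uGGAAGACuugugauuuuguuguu
Both share the seed GGAAGAC, whose complement in a transcript reads GTCTTCC. Those 7 letters occurred in the longest annotated 3′ UTR of 4 of the 9 genes, and the stretches around them are shown with the match in capitals (GENCODE, GRCm38).
Clec14a: aaatgatttgtGTCTTCCttttccagggt
Flt1: tctgaggcaatGTCTTCCtccagggaaac
Pecam1: cagcctgacctGTCTTCCttgtgtttcgg
Cdh5, first: caccggacactGTCTTCCctgatttccaa
Cdh5, second: ctgaacttttaGTCTTCCccaagggtccc
The letters did not occur in the 3′ UTRs of Kdr, Ly6c1, Cldn5, Tek and Tie1. Of 15168 genes with a 3′ UTR, 13.8% held the same letters. A match is a description of the sequence and not a shown site.

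When the knockout effect was averaged over the 4 regions, 3 of the 9 genes fell and 0 rose. Clec14a fell most (log2 -0.85, SE 0.12, edgeR adjusted p = 0.000334), Ly6c1 fell by 0.24 on the log2 scale (SE 0.045, adjusted p = 0.00428) and Kdr by 0.30 (SE 0.081, adjusted p = 0.0475). The other 6 did not pass: Cldn5 was at -0.17 (SE 0.098, adjusted p = 0.489), and Flt1, Pecam1, Tek, Tie1 and Cdh5 lay between 0.02 and 0.08 (adjusted p of 0.695 to 0.930). Among the 17266 genes tested, 2.68% were called, 0.863% as lower (149 genes) and 1.81% as higher (313 genes). Scaled by library totals alone the split was 171 lower and 206 higher, and the 3 genes fell as before. The median log2 of the 9 genes was 0.02, with 4 of them below 0, beside -0.001 for all genes tested. The 9 genes were chosen with earlier results known, so their counts beside those of all genes are a description and not a test. The labels do not say whether the 3 libraries of a group come from separate mice, nor whether libraries of equal genotype and number in different regions come from the same mouse. The p-values therefore measure the spread between these libraries and treat them as independent. With a correlation estimated between libraries of equal genotype and number (limma), Clec14a passed (adjusted p = 0.00425), and Ly6c1 (adjusted p = 0.0569) and Kdr (adjusted p = 0.388) did not. When the counts of the 4 regions were summed for each genotype and number, 3 libraries against 3, Clec14a kept its size without passing (log2 -0.86, adjusted p = 0.288), and 0 of 18434 genes passed. With the number as a block Clec14a passed (adjusted p = 0.0318), and Ly6c1 (0.0953) and Kdr (0.125) did not.

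**Figure D1:**
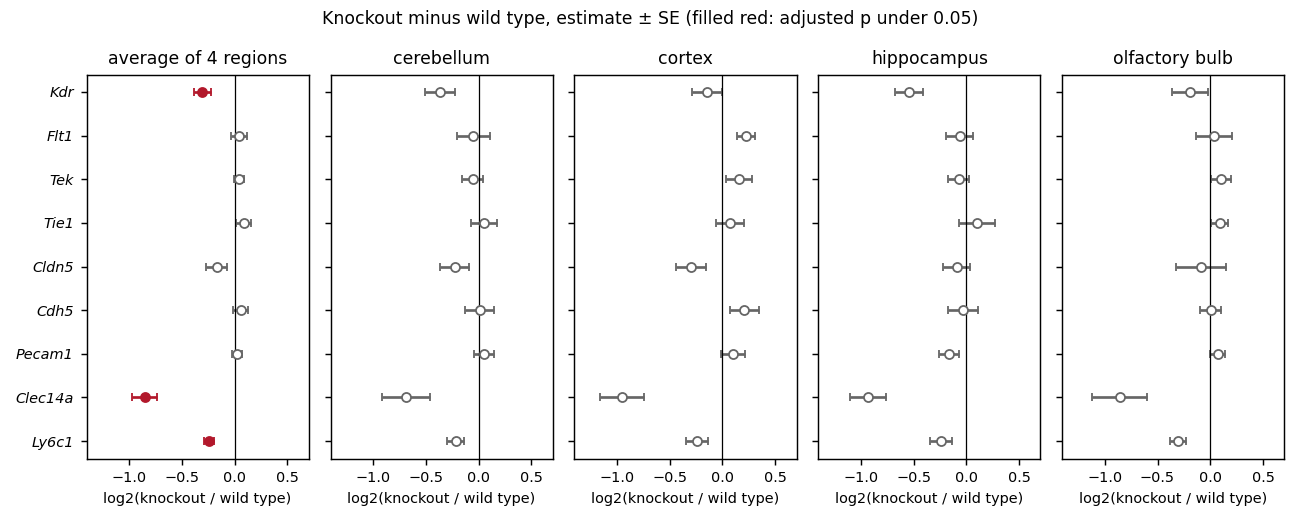
Knockout minus wild type for the 9 genes, as the log2 estimate (horizontal axis) with its SE, on average over the 4 regions (left, 24 libraries) and within each region (6 libraries each). Filled red points passed at an adjusted p under 0.05: Clec14a, Ly6c1 and Kdr on average, and no gene within a single region.

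Clec14a, the endothelial lectin, had the lowest level of the 9 genes and the largest difference. Levels here are CPM, counts scaled to the library's gene counts with TMM factors. In the cerebellum the 3 wild-type libraries had 4.54, 7.93 and 5.58 CPM and the knockout libraries 3.17, 3.66 and 4.40. In the cortex the wild type had 5.54, 8.33 and 6.70 CPM and the knockout 3.66, 4.13 and 2.91. Every knockout library was below every wild-type library in both of these regions. In the hippocampus the wild type had 6.31, 7.45 and 7.64 CPM and the knockout 3.94, 4.22 and 3.04. In the olfactory bulb the values were 3.87, 7.35 and 5.58 CPM in the wild type and 3.62, 3.30 and 2.44 in the knockout. The groups again did not overlap in either region, although the lowest wild-type bulb library, 3.87 CPM, was below the highest knockout library of another region, 4.40 CPM in the cerebellum. These levels rest on 92 to 253 raw counts per wild-type library and 67 to 150 per knockout library. The log2 was -0.69 in the cerebellum (SE 0.23), -0.95 in the cortex (SE 0.21), -0.93 in the hippocampus (SE 0.17) and -0.86 in the bulb (SE 0.26).

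Ly6c1, the Ly6-family surface protein, was lower by a smaller but even step. The cerebellum had 35.6, 36.1 and 39.6 CPM in the wild type and 32.2, 32.7 and 31.2 in the knockout. The cortex had 36.7, 34.0 and 42.7 CPM in the wild type and 32.5, 31.4 and 32.4 in the knockout. The groups of each region did not overlap, and the knockout libraries of both regions lay close together. In the hippocampus the wild type had 34.6, 36.9 and 36.7 CPM and the knockout 26.6, 31.3 and 34.0. In the bulb the wild type had 35.9, 42.4 and 40.2 CPM and the knockout 31.5, 33.1 and 31.9. All 12 knockout libraries were below all 12 wild-type libraries, though the highest knockout value (33.98 CPM, hippocampus 3) and the lowest wild-type value (34.01 CPM, cortex 2) all but touched. The regional log2 lay between -0.31 and -0.22. Ly6c1 has a close relative, Ly6c2, listed with 0 to 20 counts per library. Reads that fit both copies equally are not counted for either, so the level of Ly6c1 is uncertain.

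Such complete separation was uncommon. Over all 24 libraries it held, with the knockout lower, for 3 of 17266 genes (0.0174%): Ly6c1, Cdr1asG, the feature of the Cdr1as locus, and Tnfsf10, a death-receptor ligand. Within each of the 4 regions at once it held for 20 genes (0.116%), which included Clec14a and Ly6c1. In a single region it held for 5.01% of genes in the cerebellum, 4.29% in the cortex, 5.09% in the hippocampus and 4.33% in the bulb. As the members were chosen with earlier results known, these shares are a description and not a test.

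Kdr, the VEGF receptor, was less even. The wild-type cerebellum had 26.0, 25.2 and 20.3 CPM and the knockout 15.4, 19.2 and 21.1. The cortex had 23.0, 23.9 and 19.4 CPM in the wild type and 21.1, 16.5 and 22.5 in the knockout. In both regions the groups overlapped. In the hippocampus the wild type had 28.3, 21.3 and 26.7 CPM and the knockout 17.9, 19.0 and 15.5, the one region where the groups were apart. The bulb had 27.7, 21.0 and 24.4 CPM in the wild type and 26.2, 18.6 and 19.9 in the knockout, with overlap. In log2 the difference was -0.36 in the cerebellum, -0.15 in the cortex, -0.55 in the hippocampus and -0.19 in the bulb, and 10 of 12 pairs of libraries with equal region and number were lower in the knockout. Such tallies go by the labelled number and include the cortex (3 of the 12 pairs). In each region, the cortex included, the pairing was clear only for the libraries numbered 2. The cortex libraries numbered 3 did not correlate between the genotypes (-0.05).

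The call of Kdr was close to the threshold. It was lost in 17 of the 24 fits that left out 1 library, with an adjusted p of at most 0.0906 and a log2 of -0.32 to -0.27. The call held only without wild-type 3 or knockout 3 of the cerebellum, wild-type 3 or knockout 3 of the cortex, wild-type 2 of the hippocampus, or wild-type 2 or knockout 1 of the bulb. Clec14a and Ly6c1 kept their calls in all 24 of these fits.

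Markers of the choroid plexus, the epithelium that makes cerebrospinal fluid, differed between these libraries. The sums over 14 markers in this paragraph are CPM of library totals, without TMM factors. They stood at 2391 and 3377 CPM in wild-type hippocampus 1 and 3, at 42.3 CPM in wild-type hippocampus 2 and at 37.6 to 50.9 CPM in the knockout hippocampus. In the cerebellum they reached 2093 and 2456 CPM in wild types 1 and 2, 35.0 CPM in wild type 3 and 388 to 1342 CPM in the knockout. All 14 were lower in the knockout on average (median log2 -1.25), and 1 of 14 passed, the chloride channel gene Clic6 (-1.76, SE 0.44, edgeR adjusted p = 0.0361), a call lost with the replicate number as a block (adjusted p = 0.0833), with limma-voom (0.526) and in 19 of 24 fits without 1 library. DESeq2 called 4 of the 14, and the block and limma-voom 0. The main test called 0.863% of all genes as lower. The choroid plexus has its own vessels, and its part in the values of Kdr was not tested beyond leaving out libraries. Without wild-type hippocampus 1 and 3, Kdr was at -0.24 (adjusted p = 0.226), Clec14a at -0.87 (0.00233) and Ly6c1 at -0.26 (0.0173). Without the 5 libraries above 1000 CPM, Kdr was at -0.19 (adjusted p = 0.604), Clec14a at -0.84 (0.0188) and Ly6c1 at -0.28 (0.0601).

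**Figure D2:**
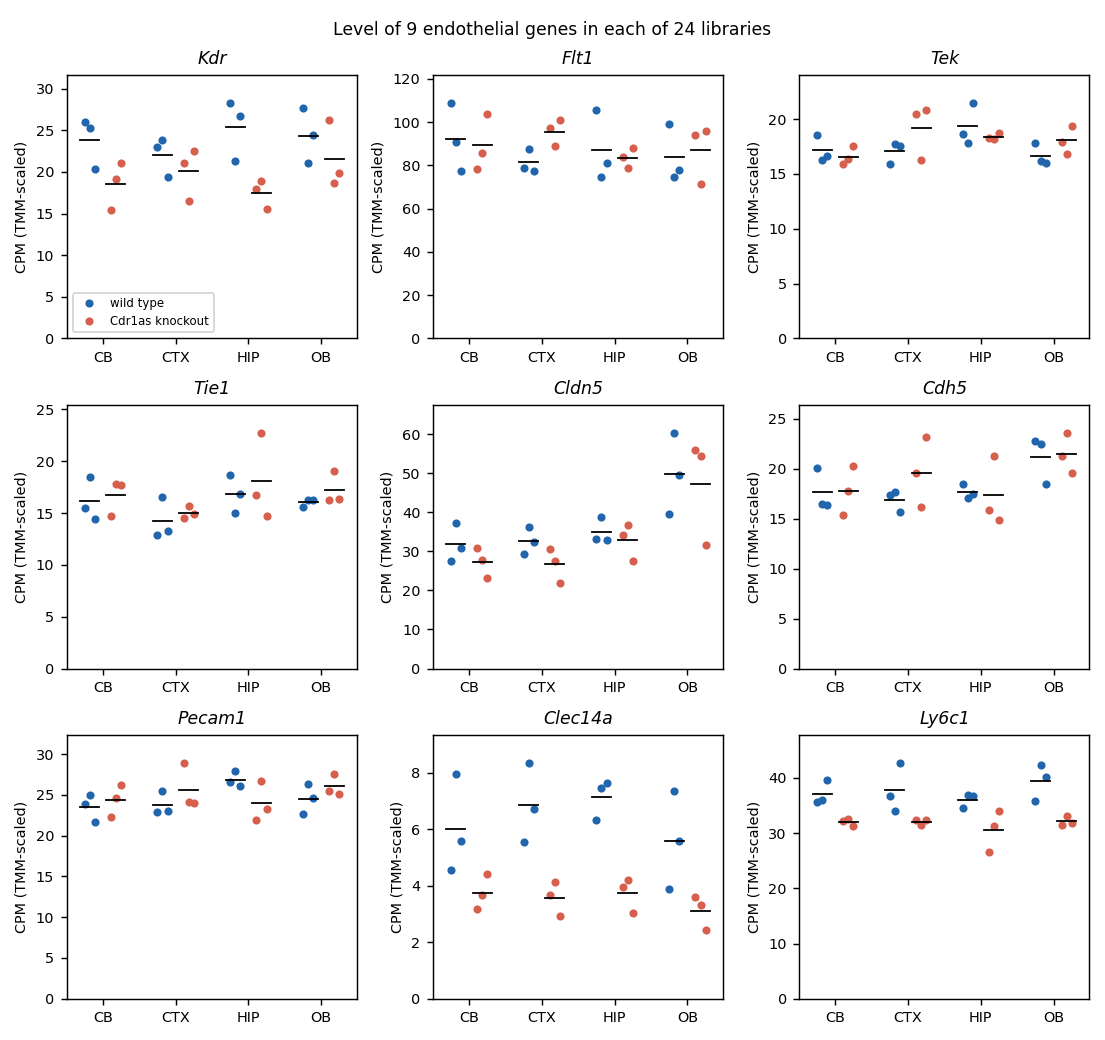
Level of each gene in the 24 libraries, as CPM (vertical axis, from 0) by region (CB cerebellum, CTX cortex, HIP hippocampus, OB olfactory bulb). Points are libraries, blue for wild type and red for Cdr1as knockout, in the order of their numbers, and bars are means of 3. The colours separate in every region for Clec14a and Ly6c1, and the bulb stands above the other regions for Cldn5.

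The remaining 6 genes did not pass between the genotypes. Cldn5, the tight junction gene, had 27.5, 37.3 and 30.7 CPM in the wild-type cerebellum and 30.9, 27.8 and 23.2 in the knockout. In the cortex it had 29.4, 36.2 and 32.3 CPM in the wild type and 30.6, 27.6 and 22.0 in the knockout. The groups overlapped in both regions, as they did in the hippocampus and the bulb, and 8 of 12 pairs were lower in the knockout. Flt1, the VEGF receptor that also acts as a decoy, ran from 74.7 to 109 CPM in the wild type (median 80.1) and from 71.3 to 104 in the knockout (median 88.4). In the cortex alone its knockout libraries (97.1, 88.7 and 101 CPM) were all above the wild-type ones (78.9, 87.7 and 77.5 CPM), at a log2 of 0.22. Tek, the angiopoietin receptor, had 15.9 to 21.5 CPM in the wild type and 15.9 to 20.8 in the knockout. Its partner Tie1 had 12.9 to 18.7 CPM in the wild type and 14.5 to 22.7 in the knockout, and its knockout libraries were all higher in the bulb. Cdh5, the VE-cadherin gene, had 15.6 to 22.8 CPM in the wild type and 14.8 to 23.6 in the knockout. Pecam1, the contact adhesion gene, had 21.6 to 27.9 CPM in the wild type and 22.0 to 28.9 in the knockout. Over all libraries the ranges of the genotypes overlapped for each of these 6 genes. The share of all genes apart with the knockout higher was not computed, so Flt1 in the cortex and Tie1 in the bulb have no background. With the knockout lower it was 4.29% in the cortex and 4.33% in the bulb.

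No single region gave a call when tested on its own 6 libraries. With edgeR, 0 of the 9 genes passed in the cerebellum, the cortex, the hippocampus and the bulb, where 0%, 0.0379%, 0% and 0% of all genes were called. At an unadjusted p under 0.05 there were 3 genes in the cerebellum (Kdr, Clec14a, Ly6c1), 3 in the cortex (Clec14a, Ly6c1, Flt1), 2 in the hippocampus (Kdr, Clec14a) and 2 in the bulb (Clec14a, Ly6c1). The share of all genes at that unadjusted threshold is not given, here or for the lists below. Such counts therefore stand without a background, and the shares of adjusted calls do not serve as one. DESeq2 called Clec14a in the cortex (adjusted p = 0.0354) and the hippocampus (0.0129) and 0 of the 9 in the other two regions, and limma-voom called 0 in each. With the replicate number as a block, edgeR called Clec14a in the cortex (adjusted p = 0.0328), where the pairing was clear only for the libraries numbered 2. Whether the effect differed between regions was tested directly, and 0 of the 9 genes passed (edgeR, 0 also at an unadjusted p under 0.05, and 0 with DESeq2 and limma-voom), with 0.0232% of all genes called. The smallest unadjusted p was 0.199, for Pecam1. A p above the threshold does not show that the regions were alike.

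A comparison within each library does not depend on its scaling. Clec14a, Ly6c1, Kdr and Cldn5 were therefore set against the mean log2 CPM of Flt1, Pecam1, Tek, Tie1 and Cdh5 of the same library. These 5 were chosen with their small differences known, so the values are a description without a test. Relative to them, Clec14a was at a mean of -2.02 in the wild type and -2.91 in the knockout, a difference of -0.89 in log2, and the groups did not overlap in any of the 4 regions. Kdr was at -0.10 in the wild type and -0.45 in the knockout, and its groups did not overlap in the cerebellum, the cortex and the hippocampus. In CPM Kdr was apart only in the hippocampus. Ly6c1 differed by -0.29 and was apart in the cortex and the bulb. Cldn5 differed by -0.22 and was apart in the cortex. In CPM Ly6c1 was apart in each of the 4 regions, and Cldn5 overlapped in each. The 5 reference genes themselves lay between 0.02 and 0.08 in the averaged knockout effect. The share of all genes apart on this ratio was not computed, so these separations have no background.

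**Figure D3:**
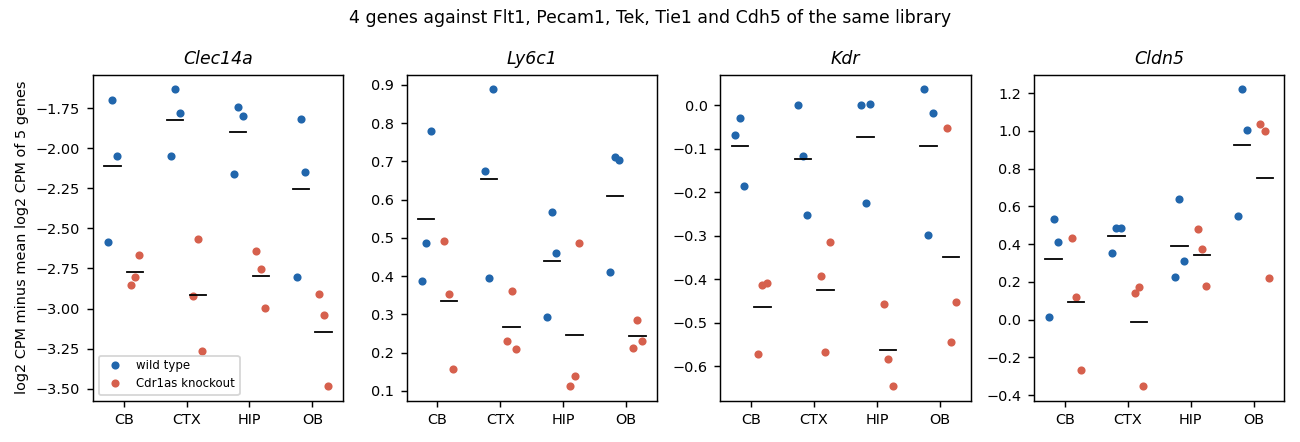
Log2 CPM of Clec14a, Ly6c1, Kdr and Cldn5 minus the mean log2 CPM of Flt1, Pecam1, Tek, Tie1 and Cdh5 in the same library (vertical axis), by region (CB, CTX, HIP, OB as above). Points are libraries, blue for wild type and red for knockout, and bars are means of 3; Clec14a is apart in all 4 regions and Kdr in 3, all but the bulb.

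Levels of different genes were compared per kilobase of exon. Over the 12 wild-type libraries the median was 24.5 CPM per kb for Cldn5, 21.9 for Ly6c1, 5.93 for Flt1, 4.18 for Cdh5, 3.98 for Pecam1, 3.75 for Tek, 3.24 for Tie1, 2.67 for Kdr and 1.42 for Clec14a. The order was clear at 3 steps, where neighbours did not overlap in any wild-type library: from Ly6c1 to Flt1, from Flt1 to Cdh5 and from Kdr to Clec14a. The other neighbours overlapped. Exon lengths were taken from GENCODE on GRCm38, whereas counting used mm9, and small steps depend on the annotation.

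Few of the 9 genes differed between regions of the wild-type brain. Between the cerebellum and the cortex, where 53.7% of all genes were called, 0 of the 9 passed. The same count was 0 between the cerebellum and the hippocampus (49% of all genes) and 0 between the cortex and the hippocampus (13.5%). In these 3 comparisons 0 of the 9 reached an unadjusted p under 0.05 in edgeR, and DESeq2 and limma-voom called 0. The olfactory bulb differed in a single gene from the cerebellum (46.4% of all genes called), in 2 from the cortex (44.3%) and in 1 from the hippocampus (40.9%).

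The gene that set the bulb apart was Cldn5. Its wild-type bulb libraries had 39.5, 60.3 and 49.6 CPM, above all 9 wild-type libraries of the other regions, which had 27.5 to 38.8 CPM. The log2 difference was -0.65 for cerebellum minus bulb (SE 0.16, edgeR adjusted p = 0.00523), -0.61 for cortex minus bulb (SE 0.16, adjusted p = 0.00844) and -0.51 for hippocampus minus bulb (SE 0.16, adjusted p = 0.0223). The knockout bulb had 55.9, 54.4 and 31.7 CPM, so 2 of its libraries were as high as the wild type and the third was within the range of the other regions. In the 12 knockout libraries Cldn5 again passed against the cerebellum and the cortex, and missed against the hippocampus (-0.52, adjusted p = 0.0637). In the wild type the difference from the hippocampus was also lost without hippocampus 1 (adjusted p = 0.0840), hippocampus 3 (0.0815), bulb 2 (0.0977) or bulb 3 (0.0530). Cdh5 was the other gene, lower in the cortex than in the bulb (-0.33, SE 0.12, adjusted p = 0.0344). That call was lost without cortex 1 (adjusted p = 0.0607), cortex 3 (0.126), bulb 1 (0.119) or bulb 2 (0.102), and in the knockout libraries (-0.14, adjusted p = 0.515). With the replicate number as a block, Cdh5 also passed against the cerebellum (adjusted p = 0.0250) and the hippocampus (0.0332). With that block Clec14a passed between hippocampus and bulb, and Pecam1 between cerebellum and hippocampus.

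Within groups the 9 genes did not vary as 1 unit. After the mean of each of the 8 groups was taken off, 21 of the 36 pairs of genes had a positive correlation over the 24 libraries and 15 a negative one, with a median of 0.08. The highest were Clec14a with Cldn5 (0.73) and Kdr with Flt1, the 2 VEGF receptors (0.72), followed by Pecam1 with Tie1 (0.59). The lowest were Cldn5 with Flt1 (-0.55) and Kdr with Ly6c1 (-0.54). Of the 3 genes that fell, Clec14a had correlations near 0 with Kdr (-0.04) and with Ly6c1 (0.03). Wild-type library 2 was the highest of its group for Cldn5 and Pecam1 in 4 of 4 regions and for Clec14a in 3. The points share libraries, depth and possibly mice, so the coefficients are given without a p.

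**Figure D4:**
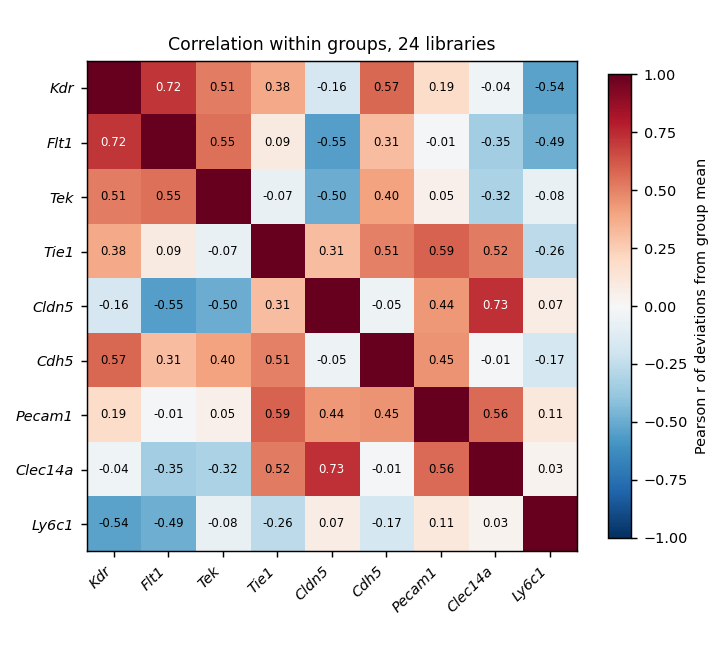
Pearson correlation between each pair of the 9 genes over 24 libraries, after subtraction of the 8 group means from log2 CPM. Red marks positive and blue negative values; Clec14a with Cldn5 (0.73) and Kdr with Flt1 (0.72) are the highest and Cldn5 with Flt1 (-0.55) the lowest.

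The genes most like the mean of the 9, by the same within-group correlation among 14438 genes with a mean of at least 1 CPM, were Stat6 (0.84), a cytokine-activated transcription factor, and Tgfbr2 (0.83), a receptor for TGF-beta. Sun2, Tec, C1ra, Gzmm, Pdgfrb (0.78), Yap1, Fkbp9 and Tlr2 followed. Pdgfrb encodes the receptor that marks pericytes, the contractile cells around capillaries. Those most like Clec14a were Cyth3 (0.88), Rarg, Acsl1, Abtb1 and Ttc38. None of these 15 genes passed between the genotypes on average (edgeR adjusted p of 0.109 to 0.959). The correlations are the highest of 14438 over few libraries, and how high unrelated genes reach was not computed. Libraries of equal number also share deviations, so the likeness is a description and not a test.

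None of the listed ligands and partners of the receptors passed, beside 2.68% of all genes called. At that share, 0 calls in so short a list does not show that the genotypes were alike. In the VEGF list, which holds the ligands, the neuropilins and Flt4, 0 of 8 genes passed (median log2 0.03; 0 at an unadjusted p under 0.05, and 0 with DESeq2 and limma-voom). The 2 with the smallest p were Flt4, the lymphatic VEGF receptor (-0.20, adjusted p = 0.391), and Nrp2, a co-receptor (0.12, adjusted p = 0.608). Among angiopoietins and partners of the Tie receptors 0 of 7 passed (median -0.03; 1 at an unadjusted p under 0.05, and 0 with DESeq2 and limma-voom), with Angpt1, the Tek ligand, at 0.16 (adjusted p = 0.321) and the adaptor Grb14 at -0.09 (adjusted p = 0.371). In the lectin family of Clec14a, which was listed with the shared ligand Mmrn2, 1 of 4 rose and 0 fell (median -0.01). That gene was Cd93, another endothelial lectin of this family, at 12.5 CPM in the wild-type median and 15.7 in the knockout (log2 0.32, SE 0.077, edgeR adjusted p = 0.0273). It was higher in 11 of 12 pairs, opposite to Clec14a, though the call was lost in 7 of 24 fits that left out 1 library and, by more, with the estimated correlation (adjusted p = 0.183), without the libraries numbered 2 (0.186), without the cortex (0.122) and with regions summed and the block (0.0852).

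Barrier genes are given beside all genes tested, of which 0.863% fell and 1.81% rose. Of 13 junction genes besides the members, 1 rose and 0 fell (median 0.06): Ctnnd1, the p120 catenin that stabilises cadherins in many cell types (0.18, SE 0.044, edgeR adjusted p = 0.0251). Of 16 transporters of the barrier, 0 rose and 1 fell (median -0.05): Tfrc, the transferrin receptor, which neurons express as well (-0.30, SE 0.072, adjusted p = 0.0251), again in 12 of 12 pairs. With the replicate number as a block the counts of called genes were 2 of 13 and 4 of 16, in a fit that called more genes in all as well. Both calls were lost in several alternatives: with the estimated correlation the adjusted p was 0.163 for Ctnnd1 and 0.142 for Tfrc, without the libraries numbered 2 it was 0.108 and 0.226, and with regions summed and the block 0.110 and 0.0701. Ctnnd1 was also lost without knockout cerebellum 3 (adjusted p = 0.0534) or wild-type cortex 3 (0.0511), and Tfrc without wild-type cerebellum 2 (0.0502) or knockout cortex 1 (0.0545).

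Among 29 tested other markers of endothelium, 0 rose and 2 fell (median -0.02), beside 1.81% of all genes that rose and 0.863% that fell. Ly6a, a second Ly6-family surface gene of brain vessels, went from a median of 24.1 to 19.1 CPM (log2 -0.30, SE 0.070, edgeR adjusted p = 0.0212), a fall seen in 12 of 12 pairs. Ramp2, the partner of the adrenomedullin receptor, went from 21.7 to 16.9 CPM (-0.26, SE 0.057, adjusted p = 0.0146). With the estimated correlation neither passed (adjusted p = 0.106 for Ly6a and 0.124 for Ramp2). The block and DESeq2 called more genes in all than the main test. With the block 5 of the 29 were called, and with DESeq2 and limma-voom 4. Their summed level did not separate the genotypes: the 30 listed markers together ran from 875 to 1100 CPM in the wild type and from 849 to 1103 in the knockout.

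Of 19 endothelial transcription factors, 3 rose and 1 fell (median -0.03), beside 1.81% of all genes that rose and 0.863% that fell. Klf2, the shear-stress factor that is also an early response gene, went from a median of 7.74 to 11.9 CPM (log2 0.66, SE 0.12, edgeR adjusted p = 0.00428), and Bcl6b from 1.74 to 3.03 CPM (0.66, SE 0.12, adjusted p = 0.00262). Both were higher in 12 of 12 pairs. With the estimated correlation Klf2 passed (adjusted p = 0.0127) and Bcl6b did not (0.0613). Bcl6b was also lost without the cortex (0.0683) and Klf2 without the libraries numbered 2 (0.0915). Ebf1 rose by 0.30 (adjusted p = 0.0293), lost in 8 of 24 fits without 1 library and with the estimated correlation (0.199). Its regional log2 ran from 0.03 in the cortex to 0.57 in the bulb. The wild-type level of Ebf1 ran from 2.42 to 55.4 CPM, and which cells carried it was not tested. Ets1, a founder of the ETS family that acts at many endothelial promoters, fell by 0.23 on the log2 scale (SE 0.045, adjusted p = 0.00679), lower in 11 of 12 pairs, a call lost with the estimated correlation (0.0956) and without the libraries numbered 2 (0.144). Of 7 tested genes of endothelial activation, 1 rose and 0 fell: Apold1, a quickly induced vascular gene (0.89, SE 0.16, adjusted p = 0.00315). It passed with the estimated correlation (0.0140) and not without the libraries numbered 2 (0.160). The list as a whole lay the other way, with 5 of 7 genes lower and a median of -0.24. Among those that did not pass were Lcn2 (-2.48, adjusted p = 0.101) and the leukocyte adhesion genes Icam1 (-0.56, 0.0841) and Vcam1 (-0.24, 0.205), chosen after their values were seen. Of the 7 genes, 5 had an unadjusted p under 0.05, DESeq2 called 3 and the block 2, and both called more genes in all.

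The promoters of the members were searched for the ETS-type letters AGGAAG and CGGAAG on both strands (windows of 300 bases around the RefSeq start, GRCm38.p6). A window was found for 7 of the 9 genes, without Pecam1 and Cdh5. The letters were present for 3 of these 7 (Flt1, Tie1 and 1 of the 2 starts of Ly6c1). Counted by window this was 3 of 8, beside 46.5% of all 32851 windows. The 250 bases upstream are shown for the 2 VEGF receptors, of which Kdr fell and Flt1 did not, and for Clec14a. Matches are in capitals, and all 3 genes lie on the minus strand.
Kdr (chr5:75978456-75978705): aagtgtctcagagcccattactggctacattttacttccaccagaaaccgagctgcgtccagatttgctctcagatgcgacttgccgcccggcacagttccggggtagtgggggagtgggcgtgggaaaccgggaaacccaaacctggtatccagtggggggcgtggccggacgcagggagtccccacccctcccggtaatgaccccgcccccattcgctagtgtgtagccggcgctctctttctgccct
Flt1 (chr5:147726012-147726261): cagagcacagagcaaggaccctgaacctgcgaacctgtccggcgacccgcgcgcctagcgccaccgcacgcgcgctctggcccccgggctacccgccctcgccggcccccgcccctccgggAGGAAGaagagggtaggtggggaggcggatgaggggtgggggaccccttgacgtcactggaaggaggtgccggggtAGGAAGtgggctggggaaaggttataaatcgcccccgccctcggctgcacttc
Clec14a (chr12:58269259-58269508): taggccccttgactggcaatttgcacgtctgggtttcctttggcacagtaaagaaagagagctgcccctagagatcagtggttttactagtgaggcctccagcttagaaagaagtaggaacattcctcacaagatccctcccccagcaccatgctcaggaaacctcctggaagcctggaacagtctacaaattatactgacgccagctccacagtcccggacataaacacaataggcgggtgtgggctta
Flt1 held 2 matches, and Kdr and Clec14a held 0. Ly6c1, which fell too, held 3 at 1 of its starts and 0 at the other. The absence of these letters from a window says nothing about where a factor binds.

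Beside each list here, 1.81% of all genes tested rose and 0.863% fell. In Wnt signalling, which builds and maintains the barrier, 0 of 17 genes rose and 3 fell (median -0.06). They were Apcdd1, a membrane inhibitor of Wnt that brain vessels express (-0.50, SE 0.063, edgeR adjusted p = 0.000115), Notum, a secreted Wnt deacylase (-0.48, SE 0.092, adjusted p = 0.00542), and the receptor Fzd6 (-0.24, SE 0.047, adjusted p = 0.00592). Apcdd1 and Notum were lower in 12 of 12 pairs. With the estimated correlation Apcdd1 passed (adjusted p = 0.00555), and Notum (0.0941) and Fzd6 (0.0691) did not. In Notch signalling 0 of 13 rose and 1 fell (median -0.06), the target Heyl (-0.60, SE 0.15, adjusted p = 0.0328). Heyl was at -0.91 in the cerebellum, -0.76 in the cortex, -0.81 in the hippocampus and 0.04 in the bulb. Its wild-type level ran from 5.12 to 43.8 CPM, and which cells carried it was not tested. Heyl lost its call with the estimated correlation (0.442) and in 10 of 24 fits without 1 library, and was at 0.09 when the regions were summed. Among 15 hypoxia-response genes 2 rose and 1 fell (median 0.02): the glycolytic regulator Pfkfb3 (0.33, adjusted p = 0.0105) and the demethylase Kdm3a (0.20, adjusted p = 0.0425) rose, and the kinase Pdk1 (-0.13, adjusted p = 0.0313) fell. The calls of Kdm3a and Pdk1 were lost in 17 and 10 of the 24 fits without 1 library. With the estimated correlation none of the 3 passed (adjusted p = 0.0594 for Pfkfb3, 0.360 for Kdm3a and 0.301 for Pdk1).

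Of these 17 genes of the vascular and hypoxia lists that passed on average, 3 (Apcdd1, Apold1 and Klf2) passed with the estimated correlation, 2 (Apcdd1 and Apold1) with regions summed and the block, and 0 with regions summed alone.

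**Figure D5:**
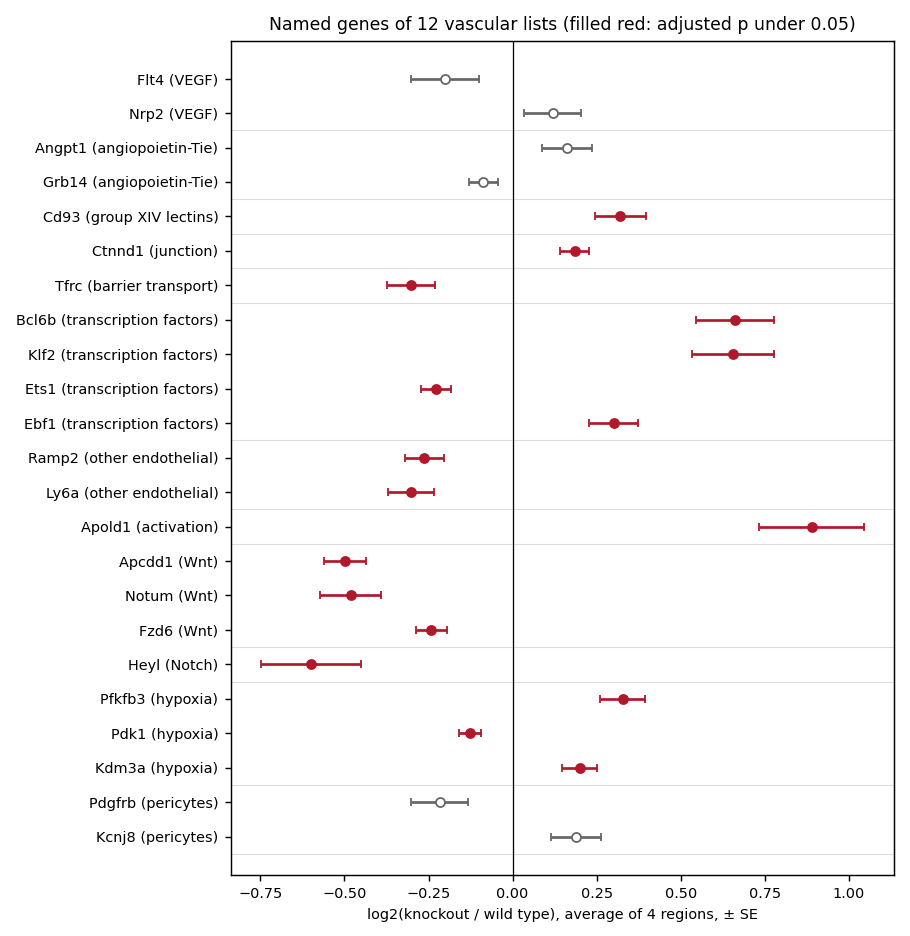
Knockout minus wild type, averaged over the 4 regions, for the named genes of 12 lists (list in brackets), as the log2 estimate with its SE (horizontal axis). Filled red points passed at an adjusted p under 0.05; the passing Wnt genes are all lower, while Bcl6b, Klf2 and Apold1 are highest.

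Markers of most other cells around the vessels passed in neither direction, beside 2.68% of all genes called. At that share, 0 calls in a list of 8 to 14 genes does not show that the genotypes were alike. Of 14 pericyte genes 0 passed (median -0.03; 3 at an unadjusted p under 0.05, and 0 with DESeq2 and limma-voom), with Pdgfrb at -0.22 (adjusted p = 0.215) and the potassium channel gene Kcnj8 at 0.19 (adjusted p = 0.220). The count was also 0 of 10 for smooth muscle (median 0.06), 0 of 14 for fibroblasts (-0.12), 0 of 12 for microglia (-0.11), 0 of 12 for astrocytes (0.001), 0 of 12 for oligodendrocytes (-0.01), 0 of 12 for neurons (-0.01) and 0 of 8 for erythrocytes (0.05), all by edgeR at the adjusted threshold. At an unadjusted p under 0.05 there were 3 for astrocytes, 1 each for microglia, oligodendrocytes and neurons, and 0 for the other three; DESeq2 called 2 astrocyte genes and 0 in the other lists, and limma-voom called 0. With the replicate block 2 astrocyte genes and 1 neuron gene were called, and 0 in the other lists. Olig2 fell (-0.49, edgeR adjusted p = 0.000212), 1 of 7 genes of oligodendrocyte precursors (3 with the block). Of 10 tested genes of border macrophages and leukocytes 0 passed (3 at an unadjusted p under 0.05, 1 with DESeq2, 1 with the block, 0 with limma-voom), and all 10 were lower (median -0.44). Their summed level was 12.8 to 55.0 CPM in the wild type and 11.5 to 39.7 CPM in the knockout, with overlap in each region. Their part in the fall of Clec14a, Ly6c1 and Kdr was not tested.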

How the data were processed

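The 24 libraries of poly(A)-selected RNA came from a stranded kit, per the labels' protocols, and held 21.1 M to 40.5 M gene counts each. The authors deposited 1 table of raw read counts for each library. The submitters' processing notes name bcl2fastq 2.17.1.14, STAR 2.5.1b, HTSeq 0.6.1p1 and mm9. The strand setting of the counting is not given in the sources used here, so overlapping genes are uncertain. Summary lines naming no gene stayed out of library sizes (8.22% to 16.8% of counts lay in no feature).

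Tests used the edgeR 4.0.16 quasi-likelihood F test (robust, R 4.3.3) after filterByExpr and TMM scaling, with Benjamini-Hochberg adjustment over all genes of a comparison and a threshold of 0.05. The SE of a log2 fold change is its size divided by the root of F. Regional knockout effects used 6 libraries, the average and the difference between regions 24, and wild-type regions 12. Alternatives were DESeq2 1.42.0, limma 3.58.1 (voom), other scalings, no filter, a replicate block and libraries left out. The tests were run on simulated data in which each library was drawn independently. Such data cannot check the treatment of the real libraries as independent.

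Over 14438 genes, deviations from the group mean correlated between genotypes at equal number by 0.30 to 0.77 (cerebellum), -0.05 to 0.73 (cortex), 0.37 to 0.64 (hippocampus) and 0.36 to 0.83 (bulb), and between wild-type regions by 0.13 to 0.71. The main tests took no pairs. The tallies of pairs and the replicate block went by the labelled number in every region, the cortex included. The labels do not state that equal numbers are pairs.

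The members and 22 further lists (287 of 290 symbols matched) were chosen with earlier results of these data known. Named are the genes of a list that passed on average, at most 6, or else the 2 with the smallest p; lists of smooth muscle, fibroblasts, blood, glia and neurons are given by counts, with Olig2. The 10 genes most like the mean of the members and the 5 most like Clec14a are named too.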

Additional observations from a re-analysis of the deposited data

How the results depend on the processing

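On average over the regions 3 of the 9 genes fell, and the same number was found with DESeq2, library totals, DESeq2 size factors and the replicate block (1256 genes in all with that block, 462 without). The number was 1, Clec14a, without the libraries numbered 2, without the olfactory bulb, with libraries of equal genotype and number correlated, without the libraries above 1000 CPM of choroid plexus markers, and with regions summed and the block. It was 0 with regions summed. Leaving out 1 library at a time gave 2 to 3. Clec14a kept its call in every alternative except summed regions. Ly6c1 lost it without number 2 (adjusted p = 0.0506), without the bulb (0.0617), when correlated (0.0569) and when summed (0.432, or 0.0953 with the block). It also lost it without the libraries above 1000 CPM of choroid plexus markers (0.0601). Kdr lost it with limma-voom (0.0532), without the filter (0.0548), without number 2 (0.129), without any 1 region (0.0717 to 0.367), when correlated (0.388) and when summed (0.516, or 0.125 with the block). Kdr also lost it without the choroid-rich libraries (0.226) and without those above 1000 CPM (0.604). The alternatives that left out the cerebellum, hippocampus, bulb or choroid-rich libraries, and the summed regions, were chosen after seeing the data.

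Within regions, the number of the 9 genes called rose from 0 to 1 in the cortex (DESeq2 and replicate block, Clec14a) and in the hippocampus (DESeq2, Clec14a; without number 2, Kdr). Between wild-type regions it rose from 0 to 1 for cerebellum and hippocampus (block) and for cortex and hippocampus (without number 2, Tie1), from 1 to 2 for cerebellum and bulb (library totals and block), and from 1 to 2 (library totals) or 3 (block) for hippocampus and bulb. It fell from 2 to 1 for cortex and bulb (no filter, without number 2, knockout libraries) and from 1 to 0 for hippocampus and bulb (knockout libraries). With 1 library left out the ranges were 1 to 2 for cerebellum and bulb, 1 to 2 for cortex and bulb, 0 to 1 for hippocampus and bulb and 0 to 0 elsewhere. The replicate block changed no other call of the 9 genes.

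The signs that changed belonged to values that had not passed, except Heyl. Flt1 was at -0.0169 without the cortex. Pecam1 was at -0.00425 with library totals, -0.00562 without the cortex and -0.00347 without the bulb, and at -0.000668 to 0.0364 with 1 library left out. Kdr in the cortex was at 0.0388 without number 2, and with 1 library left out Cldn5 ran from -0.182 to 0.0173 (hippocampus) and from -0.232 to 0.122 (bulb). With regions summed, Nrp2 was at -0.0483 (-0.0338 with the block) and Heyl at 0.0865 (0.0297 with the block). The cause was not tested.

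Over all genes, the averaged comparison called 462 (313 higher, 149 lower), 377 with library totals (206 higher, 171 lower), 790 with DESeq2, 200 without number 2, 217 without the cortex, 233 without the cerebellum, 192 without the hippocampus, 170 without the bulb, 108 when correlated, 294 without the choroid-rich libraries, 99 without those above 1000 CPM, and 133 with regions summed and the block. Within regions DESeq2 called 46 genes in the cerebellum, 102 in the cortex, 37 in the hippocampus and 60 in the bulb, and the block 3, 110, 15 and 57, where the main test called 0, 6, 0 and 0. Depth limits Clec14a most, at 67 to 253 counts per library.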
